A study of Homo sapiens with 19 samples.

Results

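The genes described here are EIF2AK2, which encodes the double-stranded RNA sensor kinase PKR, and 9 genes of the integrated stress response: the transcription factor genes ATF4, ATF3 and DDIT3, and ASNS, TRIB3, CHAC1, SESN2, PPP1R15A and DDIT4. They were taken by gene symbol, as a set of 10 among 78894 genes in the table, and all 10 were among the 23121 genes left by the filter on low counts. RNA sequencing after removal of ribosomal RNA was applied to differentiated HepaRG cells, a human hepatic carcinoma line that matures in culture into hepatocyte-like and biliary-like cells. Batch 1 held cells with an siRNA against ADAR (3 libraries), an siRNA against ADARB1 (3 libraries) or a negative control siRNA (siNC, 3 libraries). Batch 2 held cells given 1 µM BX795 together with the ADAR siRNA (2 libraries), 1 µM BX795 (3 libraries), 1000 U/mL interferon alpha (IFNa, 2 libraries), and siNC controls of its own (3 libraries). Each siRNA was used at 20 nM, and the compounds went in with the transfection and were kept in the medium. The sources used here do not say whether an siRNA was also added where IFNa or BX795 was given alone. ADAR and ADARB1 deaminate adenosines in double-stranded RNA, and BX795 is a small-molecule inhibitor of the innate immune kinase TBK1 and of IKK epsilon. All groups are of 1 cell line, and no label ties a library to a separate culture, so p-values measure the spread between these libraries alone, which may be technical.

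PKR is an interferon-induced kinase that binds double-stranded RNA and then phosphorylates the alpha subunit of the translation factor eIF2. Phosphorylated eIF2 alpha slows most protein synthesis but favours translation of ATF4 mRNA, and the ATF4 protein drives genes of amino acid supply and of stress signalling. RNA editing by ADAR is known to keep cellular double-stranded RNA from activating PKR. Both PKR activity and ATF4 protein are set mainly after transcription, so the mRNA levels given here do not measure them.

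Of 10 members, 3 held the letters TGATGNAA of the composite C/EBP-ATF element, through which ATF4 and its partners act, within 250 bases before a gene start. They are shown because ATF3 and ASNS, which moved in opposite directions after ADAR siRNA, both carried a match. Each stretch comes from RefSeq promoters of GRCh38.p14, reads 5′ to 3′ on the strand of its gene, and has the match in capitals with 20 bases on either side. ATF3 is at chr1:212565196-212565243 on the plus strand, with the match at bases -191 to -184 from the start. ASNS is at chr7:97872449-97872496 on the minus strand, with the match at bases -68 to -61. CHAC1 is at chr15:40953242-40953289 on the plus strand, and its match at bases -209 to -202 lies on the opposite strand.
ATF3: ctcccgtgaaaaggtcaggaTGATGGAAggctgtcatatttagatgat
ASNS: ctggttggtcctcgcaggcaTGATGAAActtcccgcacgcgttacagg
CHAC1: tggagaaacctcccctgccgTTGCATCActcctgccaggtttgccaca
Searched on both strands, TGATGNAA occurred in 3.14% of 35116 promoter windows, and in at least 1 window of 3.89% of 27305 genes. The interferon response letters GAAANNGAAA occurred in 3.71% of genes and in 0 members, EIF2AK2 included, and the ER stress letters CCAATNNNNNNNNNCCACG in 0.0916% of genes and in 0 members. No match says only that these letters are not in these windows.

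The libraries held about 42652000 to 77103700 counts in batch 1 and about 13080900 to 34720000 counts in batch 2, and among the members CHAC1 had the fewest (33 to 228 counts per library). The targeted genes moved with the labels: ADAR had 60.6 to 70.6 CPM (the count relative to library size after TMM scaling) after ADAR siRNA, against 260 to 264 CPM with siNC, while ADARB1 had 10.3 to 11.3 CPM after ADARB1 siRNA, against 31.4 to 33.5 CPM with siNC. ADAR siRNA also lowered ADARB1, to 25.1 to 28.9 CPM (log2 fold change -0.27 ± 0.07, adjusted p = 0.00694). With BX795, ADAR had 52.5 and 55.8 CPM after ADAR siRNA, against 252 to 279.9 CPM with BX795 alone. Batch 2 libraries also differed in how GC-rich and GC-poor genes were covered. This GC trend, the median log2 deviation from the batch mean of genes above 60% GC less that of genes below 40% GC, was -0.00 and -0.54 with BX795 and ADAR siRNA, -0.61 to -0.19 with BX795, -0.41 and 0.08 with IFNa, and 0.27, 1.06 and 0.87 in the siNC libraries. In batch 1 it was -0.09 to 0.14. Hepatocyte markers (8 genes) summed to 51863 to 55317 CPM after ADAR siRNA, against 70419 to 75606 CPM with siNC. After ADARB1 siRNA they summed to 61731 to 64872 CPM, also below siNC. ALB made up most of each sum. Of the 8 genes, 5 were called lower and 0 higher (edgeR, adjusted p below 0.05) after ADAR siRNA, and 2 and 0 after ADARB1 siRNA. Of all tested genes 21.8% and 4.61% were called. Biliary and progenitor markers (5 of 6 genes tested) summed to 1055 to 1089.7 CPM after ADAR siRNA and 593 to 604 CPM after ADARB1 siRNA, against 532 to 579 CPM with siNC. In batch 2 the hepatocyte sums were 9529 and 11913 CPM with BX795 and ADAR siRNA, 14814 to 15933 CPM with BX795, 11588 and 12249 CPM with IFNa, and 12145 to 14807 CPM with siNC. Of the 8 genes, 1 was called higher and 6 lower (edgeR, adjusted p below 0.05) with BX795 and ADAR siRNA, 2 and 4 with BX795, and 0 and 5 with IFNa, each against siNC. Of all tested genes 40.3%, 47.1% and 34.3% were called. The biliary sums were 279.5 and 253, 199.9 to 203, 301 and 308, and 315 to 357 CPM in the same order. Single biliary markers moved both ways. Of 5 tested, 3 were called higher and 2 lower with BX795 and ADAR siRNA, 2 and 3 with BX795, and 2 and 1 with IFNa, each against siNC. Their median log2 fold changes were 0.67, -0.27 and 0.13, so the sums do not stand for each marker. EPCAM had 0 counts in 6 groups and 1 count over the ADARB1 siRNA libraries, and mesenchymal, leukocyte and endothelial markers summed to at most 69.3, 42.0 and 2.17 CPM in any library. The part of these markers in the results was not tested, and in bulk RNA fewer cells of a type and less RNA per cell cannot be told apart.

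Between genes, levels can be compared per length of exon. In the siNC libraries of batch 1 (n = 3), ATF4 was highest at 63.5 ± 1.55 CPM per kb (SD), followed by DDIT4 at 35.8 ± 1.37 and TRIB3 at 13.2 ± 0.460 CPM per kb. PPP1R15A at 10.2 ± 0.267, ASNS at 9.95 ± 0.327 and SESN2 at 9.76 ± 0.681 CPM per kb had overlapping libraries. DDIT3 at 6.84 ± 0.706, ATF3 at 6.05 ± 0.270 and EIF2AK2 at 5.65 ± 0.120 CPM per kb came next, each overlapping its neighbour in this order, and CHAC1 was lowest at 0.849 ± 0.0507 CPM per kb. With the control siRNA, ATF4 thus stood at the top of the set per kb, and ATF3, DDIT3 and EIF2AK2 near the bottom. The length used joins all annotated exons of a gene, 10276 bases for EIF2AK2 and 1307 to 3453 bases for the other members. The low place of EIF2AK2 depends on that length. Before division by it, EIF2AK2 had 56.9 to 59.4 CPM, just under DDIT4 at 60.3 to 65.1 CPM.

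After ADAR siRNA, EIF2AK2, ATF3 and PPP1R15A rose and ASNS fell against siNC, while ATF4 mRNA stayed within a narrow interval around no difference. With 3 members higher and 1 lower, 4 of 10 were called, where 21.8% of all tested genes were (11.0% higher and 10.8% lower; edgeR's quasi-likelihood test, Benjamini-Hochberg adjustment over all genes, adjusted p below 0.05). The members' median log2 fold change was 0.00, against -0.02 for all tested genes. After ADARB1 siRNA 0 of 10 members were called, where 4.61% of all genes were (2.10% higher, 2.51% lower), although 3 members had an unadjusted p below 0.05 and DESeq2's Wald test called 1, DDIT3. Fits of batch 1 alone and of the compared groups alone each called 4 members, while the calls over all genes went from 1066 to 3557 and 3241. Between the ADAR and the ADARB1 siRNA 2 members were higher and 3 lower (19.5% of all genes, 9.90% higher and 9.64% lower). With IFNa 3 members were higher and 3 lower (34.3%, 18.4% higher and 15.9% lower), and with BX795 1 was higher and 4 were lower (47.1%, 23.4% higher and 23.7% lower). BX795 with ADAR siRNA gave 2 higher and 2 lower members against siNC (40.3%, 21.4% higher and 18.9% lower), and 1 higher against BX795 (9.52%, 5.06% higher and 4.46% lower). The share of members called was close to that of all genes for BX795 against siNC and for BX795 with ADAR siRNA against siNC. It was also close for BX795 with ADAR siRNA against BX795. These counts are not a result about the members.

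**Figure D1:**
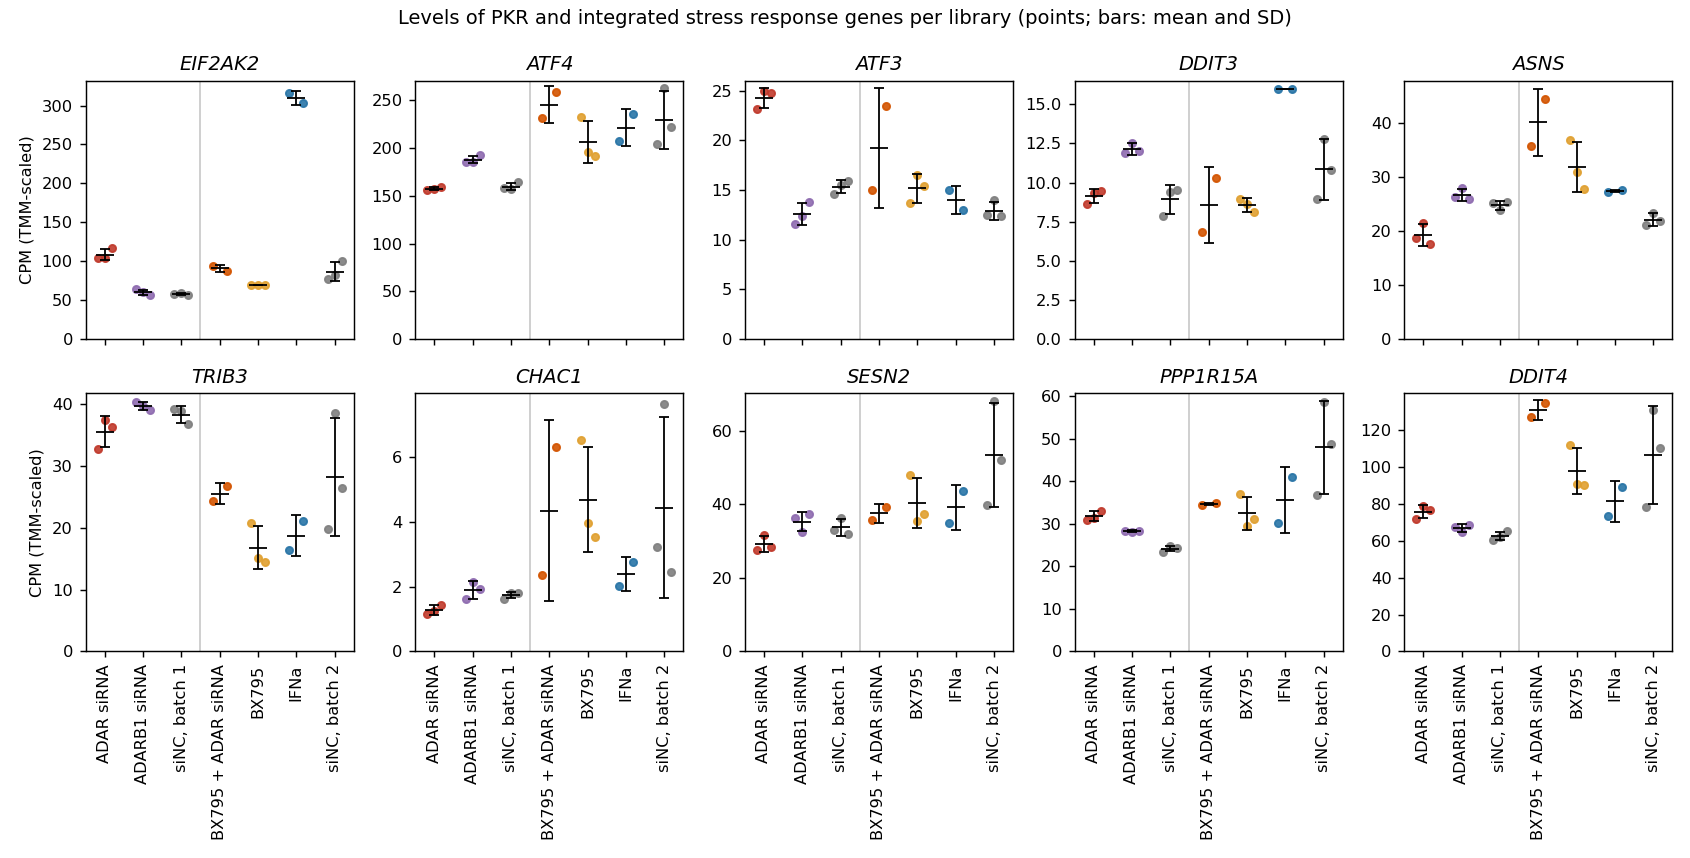
Level of each gene (CPM after TMM scaling, linear axis from 0) in every library, by group, with batch 1 left and batch 2 right of the grey line; points are libraries and bars are the mean and SD. EIF2AK2 stands at 316 and 303 CPM with IFNa, and the siNC libraries of batch 2 spread widely for TRIB3, SESN2, PPP1R15A and DDIT4.

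EIF2AK2 (ENSG00000055332.19; chromosome 2, 37099210 to 37156980, minus strand, GRCh38.p14) rose with ADAR siRNA and with IFNa. It had 105, 104 and 117 CPM after ADAR siRNA, 63.7, 59.9 and 57.1 CPM after ADARB1 siRNA, and 57.8, 59.4 and 56.9 CPM with siNC. Every ADAR siRNA library lay above all others of batch 1, while the ADARB1 siRNA and siNC libraries overlapped. The log2 fold change over siNC was 0.90 ± 0.08 (SE; 1.87-fold, n = 3 each, adjusted p = 1.70e-07). It was 0.85 ± 0.08 over the ADARB1 siRNA (adjusted p = 3.88e-07). ADARB1 siRNA itself gave 0.05 ± 0.08 over siNC, with a 95% interval of -0.12 to 0.23 (adjusted p = 0.845).

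In batch 2, EIF2AK2 had 93.7 and 87.7 CPM with BX795 and ADAR siRNA, 69.4, 69.3 and 69.5 CPM with BX795, 316 and 303 CPM with IFNa, and 76.6, 82.2 and 100.2 CPM with siNC. The order was thus IFNa first, far above the rest, and BX795 last, below every siNC library, with BX795 plus ADAR siRNA inside the range of siNC. IFNa raised it by 1.84 ± 0.09 on the log2 scale (3.59-fold, n = 2 against 3, adjusted p = 3.57e-11). BX795 lowered it, with a log2 fold change of -0.31 ± 0.08 (n = 3 each, adjusted p = 0.00415). With BX795 present, ADAR siRNA raised it by 0.39 ± 0.09 (1.31-fold, n = 2 against 3, adjusted p = 0.00838), and the combination differed from siNC by 0.07 ± 0.09 (95% interval -0.12 to 0.27, adjusted p = 0.550). The response to ADAR siRNA was smaller with BX795 than without it (difference -0.52 ± 0.12, adjusted p = 0.0197), and smaller than the response to IFNa (difference -0.94 ± 0.12, adjusted p = 1.92e-05); both differences cross the batches. In the first of these tests 1 member was higher and 1 lower, where 3.42% of all genes differed (1.42% higher, 2.00% lower). In the second 3 were higher and 2 lower, where 28.7% of all genes differed (13.2% higher, 15.5% lower).

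The transcript of EIF2AK2 has the lowest GC content of the set (38.7%), and its batch 2 values moved with a correction for the GC trend. With that correction IFNa gave 1.48 ± 0.11, BX795 gave -0.73 ± 0.11, and BX795 with ADAR siRNA gave -0.29 ± 0.12 against siNC (adjusted p = 0.0732) and 0.44 ± 0.12 against BX795 (adjusted p = 0.0138). The rise over BX795 missed the threshold without replicate 1 of BX795 with ADAR siRNA (0.34, adjusted p = 0.0958) and in a fit of batch 2 alone (0.37, adjusted p = 0.124). The fall with BX795 missed it in fits of batch 2 alone (-0.27, adjusted p = 0.0564) and of the compared groups alone (-0.32, adjusted p = 0.0514). The smaller response with BX795 missed it with the GC correction (-0.47, adjusted p = 0.0917), without ADAR siRNA replicate 3 (-0.46, adjusted p = 0.0630), and without replicate 2 of BX795 with ADAR siRNA (-0.47, adjusted p = 0.0794). GPATCH11, which overlaps EIF2AK2 on the opposite strand, had 2.80 to 11.0 CPM.

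Across the 19 libraries, with each batch centred on its mean, the genes whose log2 CPM was most like that of EIF2AK2 were IFI27, XAF1 and OAS3 (Pearson r = 0.99) and IFIT1 and ISG15 (r = 0.98), all known as interferon-induced genes. These libraries share groups, batches and scaling, so r is a description. For ATF4 the nearest genes were AARS1, an alanyl-tRNA synthetase (r = 0.84), C8orf33 (0.82), SDHA, a subunit of succinate dehydrogenase (0.81), EIF3K (0.79) and GGT5 (0.78). For ASNS they were ZC3H13 (r = 0.88), PSAT1, an enzyme of serine synthesis (0.87), PEX11A (0.83), IFT80 (0.82) and PON3 (0.82).

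ATF4 (ENSG00000128272.19; chromosome 22, 39520559 to 39522686, plus strand), the central transcription factor of the response, had 156, 157 and 159 CPM after ADAR siRNA, 186, 186 and 193 CPM after ADARB1 siRNA, and 158, 157 and 164 CPM with siNC. The ADAR siRNA and siNC libraries overlapped, and the ADARB1 siRNA libraries lay above both. ADAR siRNA gave a log2 fold change of -0.02 ± 0.09 over siNC, with a 95% interval of -0.21 to 0.17 (adjusted p = 0.905), which leaves out a rise of the size seen for EIF2AK2. ADARB1 siRNA gave 0.24 ± 0.09 over siNC (adjusted p = 0.158). ATF4 was lower after ADAR siRNA than after ADARB1 siRNA (log2 fold change -0.26 ± 0.09, adjusted p = 0.0428), a call that was lost without any 1 of the 6 libraries (adjusted p = 0.0837 to 0.127).

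With BX795 and ADAR siRNA ATF4 had 232 and 259 CPM, against 232, 195 and 192 CPM with BX795, 208 and 235 CPM with IFNa, and 204, 263 and 222 CPM with siNC. All groups of batch 2 overlapped. The log2 fold changes over siNC were 0.10 ± 0.10, -0.15 ± 0.09 and -0.05 ± 0.10 in that order of treatments (adjusted p = 0.468, 0.159 and 0.729), and 0.25 ± 0.10 for BX795 with ADAR siRNA over BX795 (adjusted p = 0.121). With the GC correction ATF4 (56.7% GC) was higher with BX795 by 0.21 ± 0.06 (adjusted p = 0.0156) and with BX795 and ADAR siRNA by 0.37 ± 0.07 (adjusted p = 3.40e-04), so its direction in batch 2 depends on that setting. ATF4 pseudogenes had at most 15 counts in a library, where ATF4 had at least 2997.

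ASNS (ENSG00000070669.17; chromosome 7, 97851677 to 97928441, minus strand), the asparagine synthetase gene and a classical ATF4 target, fell after ADAR siRNA and rose with BX795. It had 18.7, 21.6 and 17.5 CPM after ADAR siRNA, 26.2, 28.03 and 25.9 CPM after ADARB1 siRNA, and 25.2, 23.9 and 25.3 CPM with siNC. All ADAR siRNA libraries were below all others of the batch. The log2 fold change was -0.37 ± 0.10 against siNC (0.776-fold, adjusted p = 0.0124) and -0.47 ± 0.10 against the ADARB1 siRNA (adjusted p = 0.00209). Its fall against siNC missed the threshold without ADAR siRNA replicate 1 (-0.34, adjusted p = 0.0515) or replicate 3 (-0.30, adjusted p = 0.0733). ADARB1 siRNA gave 0.11 ± 0.10 over siNC, with an interval of -0.11 to 0.32 (adjusted p = 0.699).

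In batch 2, ASNS had 35.7 and 44.5 CPM with BX795 and ADAR siRNA, 36.8, 30.9 and 27.7 CPM with BX795, 27.3 and 27.5 CPM with IFNa, and 21.1, 23.4 and 21.9 CPM with siNC. Every treated library was above every siNC library. BX795 raised it by 0.52 ± 0.11 (1.44-fold, adjusted p = 5.57e-04) and BX795 with ADAR siRNA by 0.86 ± 0.11 (1.82-fold, adjusted p = 1.20e-05), and with the GC correction these were 0.42 ± 0.10 and 0.79 ± 0.11. The step from BX795 to the combination, 0.34 ± 0.11, did not pass (adjusted p = 0.0626), but did with the GC correction (0.37 ± 0.11, adjusted p = 0.0249). IFNa gave 0.31 ± 0.12 (adjusted p = 0.0462), which passed in 1 of 13 alternatives and was lost without any 1 of its 5 libraries. The response to ADAR siRNA was thus negative without BX795 and 0.71 ± 0.15 higher with it (adjusted p = 0.0103), a difference that missed the threshold without replicate 2 of BX795 with ADAR siRNA (0.54, adjusted p = 0.0760). The ADAR siRNA response of batch 1 was -0.68 ± 0.15 relative to the response to IFNa (adjusted p = 0.00313). Both differences cross the batches, so treatment and batch cannot be told apart in them. ASNS pseudogenes had at most 10 counts in a library, against at least 295 for ASNS.

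ATF3 (ENSG00000162772.18; chromosome 1, 212565407 to 212620777, plus strand), an immediate stress-induced transcription factor gene, was the second member that rose clearly after ADAR siRNA. It had 23.2, 25.0 and 24.8 CPM after ADAR siRNA, 11.6, 12.4 and 13.8 CPM after ADARB1 siRNA, and 14.6, 15.5 and 16.0 CPM with siNC. The 3 groups did not overlap, with the ADAR siRNA libraries highest and the ADARB1 siRNA libraries lowest. The log2 fold change was 0.66 ± 0.12 over siNC (1.58-fold, adjusted p = 5.28e-04) and 0.95 ± 0.12 over the ADARB1 siRNA (1.93-fold, adjusted p = 1.51e-05). The lower level after ADARB1 siRNA than with siNC, -0.29 ± 0.12, did not pass (adjusted p = 0.237).

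In batch 2, ATF3 had 15.0 and 23.5 CPM with BX795 and ADAR siRNA, 13.7, 16.6 and 15.4 CPM with BX795, 15.0 and 12.98 CPM with IFNa, and 12.4, 13.99 and 12.4 CPM with siNC. One library, replicate 2 of BX795 with ADAR siRNA, stood above the rest. BX795 with ADAR siRNA was higher than siNC by 0.58 ± 0.14 (adjusted p = 0.00355), but without that library the value was 0.21 (adjusted p = 0.279), and in a fit of the compared groups alone 0.56 (adjusted p = 0.0726). BX795 gave 0.24 ± 0.13 and IFNa 0.12 ± 0.15 over siNC (adjusted p = 0.158 and 0.585), and the combination gave 0.34 ± 0.14 over BX795 (adjusted p = 0.143), or 0.37 ± 0.12 with the GC correction (adjusted p = 0.0469). The ADAR siRNA response with BX795 minus that without it was -0.32 ± 0.18, with an interval of -0.72 to 0.08 (adjusted p = 0.491). The ADAR siRNA response exceeded the IFNa response by 0.54 ± 0.19 (adjusted p = 0.0398), which missed the threshold when any 1 of 9 libraries was left out (adjusted p = 0.0515 to 0.135): any siNC replicate of batch 1, siNC replicate 2 or 3 of batch 2, ADAR siRNA replicate 2 or 3, or IFNa replicate 1 or 2.

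DDIT3 (ENSG00000175197.13; chromosome 12, 57516588 to 57520517, minus strand) encodes CHOP, a transcription factor linked to cell death under lasting stress. It had 8.63, 9.35 and 9.46 CPM after ADAR siRNA, 11.9, 12.6 and 12.0 CPM after ADARB1 siRNA, and 7.87, 9.38 and 9.55 CPM with siNC. Only the ADARB1 siRNA libraries stood apart in batch 1, above both other groups. ADAR siRNA gave 0.03 ± 0.13 over siNC, with an interval of -0.25 to 0.32 (adjusted p = 0.903), and ADARB1 siRNA gave 0.44 ± 0.13 (adjusted p = 0.0616). The latter difference passed in 6 of 14 alternatives, the GC correction among them (0.44 ± 0.12, adjusted p = 0.0264). DDIT3 was lower after ADAR siRNA than after ADARB1 siRNA (log2 fold change -0.41 ± 0.13, adjusted p = 0.0328), which was lost without any 1 of the 6 libraries (adjusted p = 0.0655 to 0.119).

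In batch 2, DDIT3 had 6.83 and 10.3 CPM with BX795 and ADAR siRNA, 8.94, 8.63 and 8.11 CPM with BX795, 16.0 and 16.0 CPM with IFNa, and 8.93, 12.8 and 10.8 CPM with siNC. The IFNa libraries were above all others. IFNa raised it by 0.57 ± 0.15 (1.48-fold, n = 2 against 3, adjusted p = 0.00720), and by 0.55 ± 0.14 with the GC correction. That call missed the threshold without IFNa replicate 1 (0.57, adjusted p = 0.0634), at the same fold change and with 1 library left in the arm, and in a fit of the compared groups alone (0.56, adjusted p = 0.0744). BX795 gave -0.33 ± 0.14 over siNC (adjusted p = 0.0611), and BX795 with ADAR siRNA gave -0.33 ± 0.16 (adjusted p = 0.109). DDIT3 shares its locus with MARS1 (58.7 to 104 CPM) and MBD6 (52.8 to 94.1 CPM) on the opposite strand. The sources used here do not say whether counting used strand, so the low counts of DDIT3 are uncertain to that extent.

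PPP1R15A (ENSG00000087074.9; chromosome 19, 48872421 to 48876058, plus strand) encodes GADD34, the phosphatase subunit that reverses eIF2 alpha phosphorylation. It had 31.0, 31.4 and 33.2 CPM after ADAR siRNA, 28.4, 28.1 and 28.4 CPM after ADARB1 siRNA, and 23.5, 24.7 and 24.3 CPM with siNC. The 3 groups did not overlap, with ADAR siRNA highest and siNC lowest. ADAR siRNA raised it by 0.40 ± 0.13 (1.32-fold, adjusted p = 0.0309), a call that was lost without any 1 of the 6 libraries (adjusted p = 0.0605 to 0.0999). ADARB1 siRNA gave 0.23 ± 0.13 (adjusted p = 0.424).

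In batch 2, PPP1R15A had 34.6 and 34.9 CPM with BX795 and ADAR siRNA, 36.9, 29.5 and 31.2 CPM with BX795, 30.2 and 41.1 CPM with IFNa, and 36.8, 58.6 and 48.7 CPM with siNC. Only BX795 with ADAR siRNA lay wholly below siNC, whose replicate 2 was highest. The log2 fold changes over siNC were -0.46 ± 0.15 for BX795 with ADAR siRNA (adjusted p = 0.0181), -0.56 ± 0.13 for BX795 (adjusted p = 0.00202) and -0.43 ± 0.15 for IFNa (adjusted p = 0.0309). With the GC correction they were -0.08 ± 0.09, -0.07 ± 0.08 and -0.13 ± 0.09 (adjusted p = 0.545, 0.525 and 0.314). The combination's call was lost without siNC replicate 2 (-0.29, adjusted p = 0.114) or without either of its own libraries (-0.45 and -0.47, adjusted p = 0.0702 and 0.0933), and the IFNa call without siNC replicate 2 (-0.26, adjusted p = 0.177), siNC replicate 3 (-0.39, adjusted p = 0.0809) or IFNa replicate 1 (-0.22, adjusted p = 0.430). The ADAR siRNA response exceeded the IFNa response by 0.83 ± 0.19 (adjusted p = 0.00414), and by 0.62 without IFNa replicate 1 (adjusted p = 0.0506).

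TRIB3 (ENSG00000101255.13; chromosome 20, 380760 to 397559, plus strand), a pseudokinase gene induced by ATF4 and CHOP, had 32.7, 37.5 and 36.3 CPM after ADAR siRNA, 40.3, 39.6 and 38.9 CPM after ADARB1 siRNA, and 39.2, 38.8 and 36.7 CPM with siNC. The ADAR siRNA libraries overlapped those of siNC, at -0.11 ± 0.16 (adjusted p = 0.706). In batch 2 it had 24.3 and 26.6 CPM with BX795 and ADAR siRNA, 20.8, 15.1 and 14.5 CPM with BX795, 16.3 and 21.1 CPM with IFNa, and 19.7, 38.5 and 26.4 CPM with siNC. All 3 treated groups overlapped siNC, which had a spread of its own as wide as the differences. BX795 lowered TRIB3 (log2 fold change -0.74 ± 0.18, adjusted p = 0.00218) and so did IFNa (-0.59 ± 0.20, adjusted p = 0.0280), against -0.14 ± 0.13 and -0.19 ± 0.14 with the GC correction (adjusted p = 0.424 and 0.348). The IFNa call was also lost without siNC replicate 2 (-0.29, adjusted p = 0.200) and without IFNa replicate 1 (-0.41, adjusted p = 0.294). Both libraries of BX795 with ADAR siRNA lay above all of BX795, by 0.61 ± 0.19 (adjusted p = 0.0513), and by 0.50 ± 0.14 with the GC correction (adjusted p = 0.0159). The combination differed from siNC by -0.13 ± 0.19 without the correction and by 0.36 ± 0.14 with it (adjusted p = 0.625 and 0.0472).

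SESN2 (ENSG00000130766.5; chromosome 1, 28259518 to 28282491, plus strand) encodes sestrin 2, which restrains mTORC1 when leucine is scarce. It had 27.7, 31.6 and 28.3 CPM after ADAR siRNA, 36.2, 32.4 and 37.2 CPM after ADARB1 siRNA, and 33.0, 36.4 and 31.8 CPM with siNC, and was not called in batch 1. The ADAR siRNA libraries lay below both other groups, at -0.21 ± 0.15 against siNC (adjusted p = 0.366). Against the ADARB1 siRNA the value was -0.27 ± 0.15 (adjusted p = 0.223). In batch 2 SESN2 had 35.8 and 39.3 CPM with BX795 and ADAR siRNA, 48.0, 35.3 and 37.4 CPM with BX795, 34.9 and 43.6 CPM with IFNa, and 39.9, 68.1 and 52.0 CPM with siNC. Replicate 2 of siNC was again highest, and only BX795 with ADAR siRNA lay wholly below siNC. SESN2 was lower with BX795 and ADAR siRNA (log2 fold change -0.50 ± 0.17, adjusted p = 0.0244) and with BX795 (-0.40 ± 0.15, adjusted p = 0.0345), and IFNa gave -0.44 ± 0.17 (adjusted p = 0.0506). The GC correction brought these to -0.08 ± 0.12, 0.12 ± 0.10 and -0.11 ± 0.12 (adjusted p = 0.647, 0.406 and 0.537). The combination's call was lost without siNC replicate 2 (-0.28, adjusted p = 0.162) or either of its own libraries (-0.43 and -0.57, adjusted p = 0.126 and 0.0738), and the BX795 call without siNC replicate 2 (-0.19, adjusted p = 0.301), siNC replicate 3 (-0.40, adjusted p = 0.0648), or BX795 replicate 2 or 3 (-0.32 and -0.35, adjusted p = 0.142 and 0.113).

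DDIT4 (ENSG00000168209.6; chromosome 10, 72273924 to 72276036, plus strand) encodes REDD1, another inhibitor of mTORC1. It had 71.9, 79.0 and 76.4 CPM after ADAR siRNA, 67.3, 64.5 and 68.4 CPM after ADARB1 siRNA, and 60.3, 62.2 and 65.1 CPM with siNC. The ADAR siRNA libraries lay above both other groups, but the difference from siNC, 0.28 ± 0.13, did not pass (adjusted p = 0.143). That difference passed in 5 of 14 alternatives, the GC correction among them (0.25 ± 0.08, adjusted p = 0.0310). In batch 2 it had 127 and 134 CPM with BX795 and ADAR siRNA, 112, 90.9 and 90.3 CPM with BX795, 73.4 and 89.1 CPM with IFNa, and 78.4, 131 and 110.0 CPM with siNC. The combination lay above all of BX795, by 0.42 ± 0.14 (adjusted p = 0.0730) or 0.33 ± 0.09 with the GC correction (adjusted p = 0.0221), and overlapped siNC. IFNa lowered DDIT4 (log2 fold change -0.39 ± 0.15, adjusted p = 0.0496), against -0.11 ± 0.10 with the GC correction (adjusted p = 0.437), -0.21 without siNC replicate 2 (adjusted p = 0.269), -0.33 without siNC replicate 3 (adjusted p = 0.134) and -0.25 without IFNa replicate 1 (adjusted p = 0.397). With the GC correction BX795 with ADAR siRNA gave 0.65 ± 0.09 over siNC (adjusted p = 2.36e-05), against 0.30 ± 0.14 without it (adjusted p = 0.107). BX795 alone gave 0.33 ± 0.09 over siNC with the correction (adjusted p = 0.00573), against -0.12 ± 0.13 without it (adjusted p = 0.478). The ADAR siRNA response exceeded the IFNa response by 0.66 ± 0.19 (adjusted p = 0.0162), and by 0.53 without IFNa replicate 1 (adjusted p = 0.121).

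CHAC1 (ENSG00000128965.13; chromosome 15, 40953471 to 40956512, plus strand), a glutathione-degrading enzyme gene downstream of ATF4, was the weakest member. It had 1.16, 1.24 and 1.45 CPM after ADAR siRNA, 1.62, 2.16 and 1.92 CPM after ADARB1 siRNA, and 1.63, 1.80 and 1.81 CPM with siNC. The ADAR siRNA libraries were lowest, at -0.45 ± 0.37 against siNC, with an interval of -1.26 to 0.36 (adjusted p = 0.452). In batch 2 it had 2.37 and 6.33 CPM with BX795 and ADAR siRNA, 6.55, 3.98 and 3.55 CPM with BX795, 2.03 and 2.77 CPM with IFNa, and 3.24, 7.65 and 2.45 CPM with siNC. Each treated group overlapped siNC there, although both IFNa libraries lay below all of BX795. CHAC1 was called in 0 of 9 comparisons. Among the alternatives CHAC1 was called in 2 of 14 for ADAR against ADARB1 siRNA (adjusted p = 0.0243 at the lowest), in 1 of 14 for BX795 (0.0337) and in 1 of 13 for IFNa (0.00639).

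**Figure D2:**
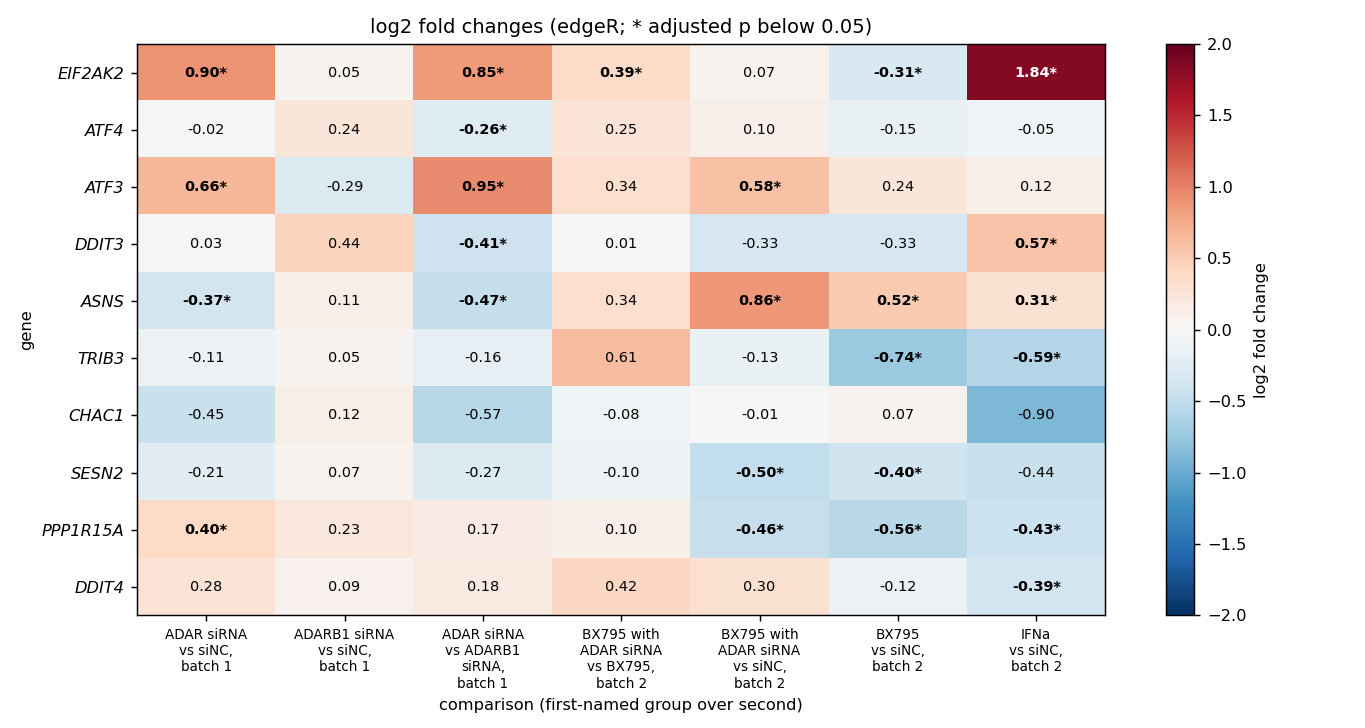
Heatmap of log2 fold changes by gene (rows) and within-batch comparison (columns, first-named group over the second; red higher, blue lower); an asterisk marks an adjusted p below 0.05. EIF2AK2 is highest with IFNa at 1.84, ASNS is lower after ADAR siRNA at -0.37 and higher with BX795 at 0.52, and ATF4 is near 0 in the ADAR siRNA column.

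The correction moved the members by their GC content. CHAC1, TRIB3, SESN2, PPP1R15A, DDIT4 and ATF4 have 62.6%, 60.9%, 59.5%, 58.8%, 58.1% and 56.7% GC in their longest annotated transcript, against 49.7% in DDIT3, 47.0% in ASNS, 46.7% in ATF3 and 38.7% in EIF2AK2. Replicate 2 of the batch 2 siNC group, which had the highest GC trend, had the highest level of that group for these 6 GC-rich members and also for DDIT3, ASNS and ATF3, but not for EIF2AK2. All 8 falls of TRIB3, SESN2, PPP1R15A and DDIT4 called in batch 2 missed the threshold with the correction, and so did the rise of ASNS with IFNa (0.21 ± 0.11, adjusted p = 0.188). The calls of ASNS with BX795, of ASNS and ATF3 with BX795 and ADAR siRNA, and of EIF2AK2 and DDIT3 with IFNa passed with it.

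**Figure D3:**
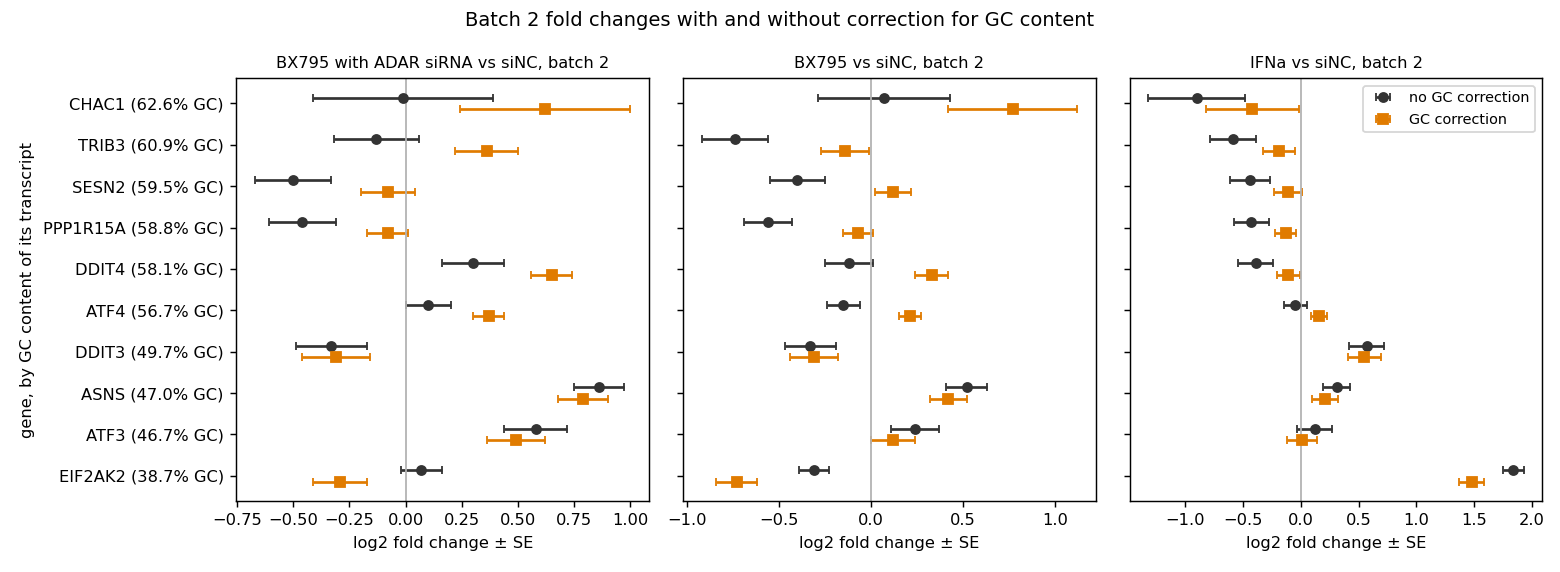
Log2 fold changes ± SE in the 3 batch 2 comparisons with siNC, without GC correction (black circles) and with it (orange squares), for each gene, with GC content falling from top to bottom. Values for the GC-rich genes move to the right with the correction, PPP1R15A with BX795 from -0.56 to -0.07 among them, and EIF2AK2 moves to the left.

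Other genes of the pathway were followed in 8 lists of 69 genes, of which 67 were tested. ADAR itself, the target of the siRNA, is among them and was called lower in every comparison of ADAR siRNA with another group. After ADAR siRNA 13 rose and 12 fell, ADAR included, where 21.8% of all tested genes were called (11.0% higher and 10.8% lower). The same share of all genes applies to each list below for ADAR siRNA against siNC. The median log2 fold change over the lists was 0.07, against -0.02 over all tested genes. Targets in amino acid and one-carbon synthesis were mostly lower: of 11 tested, 7 fell and 1 rose, with a median of -0.29. CTH, of cysteine synthesis, fell to 10.8 ± 0.212 CPM after ADAR siRNA, against 20.6 ± 2.35 CPM with siNC, and gave -0.93 ± 0.10 (adjusted p = 2.99e-06). PCK2, the mitochondrial PEP carboxykinase, gave -0.70 ± 0.15 (adjusted p = 0.00252). Amino acid transporter targets moved the other way: 4 of 8 rose and 0 fell, with a median of 0.36. SLC7A1, a cationic amino acid transporter, had 38.6 ± 1.68 CPM after ADAR siRNA, against 20.3 ± 1.56 CPM with siNC (0.93 ± 0.08, adjusted p = 2.09e-07), and SLC3A2, the heavy chain of several transporters, rose by 0.44 ± 0.11 (adjusted p = 0.00657).

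The list of tRNA synthetase targets has 13 genes, among them the tRNA exporter gene XPOT. Only SARS1, the seryl-tRNA synthetase, was called in it after ADAR siRNA, and SARS1 fell (-0.88 ± 0.07, adjusted p = 1.10e-07). Of 5 bZIP partners of ATF4, CEBPB (-0.77 ± 0.13, adjusted p = 3.40e-04) and ATF5 (-0.64 ± 0.11, adjusted p = 3.26e-04) fell. Among 11 further ATF4 and CHOP effectors 4 rose and 1 fell. The stress cytokine gene GDF15 had 104 ± 3.83 CPM after ADAR siRNA, against 42.6 ± 3.13 CPM with siNC (1.28 ± 0.14, adjusted p = 3.00e-06), and the hormone gene STC2 rose by 0.54 ± 0.10 (adjusted p = 8.47e-04). The other eIF2 alpha kinases moved little, with EIF2AK4 (GCN2) at 0.26 ± 0.07 (adjusted p = 0.00660) and EIF2AK3 (PERK) at 0.24 ± 0.07 (adjusted p = 0.0169), and the call of EIF2AK3 was lost without siNC replicate 1 or ADAR siRNA replicate 1 or 2 (adjusted p up to 0.0835). Of 12 eIF2, eIF2B and phosphatase genes 2 rose, EIF2S1 by 0.27 ± 0.08 and PPP1CB by 0.26 ± 0.08 (adjusted p = 0.0171 and 0.0190), and these passed in 12 and 9 of 14 alternatives. EIF2S1 lost its call without siNC replicate 1 or 2 (adjusted p up to 0.0662), and PPP1CB without those or without ADAR siRNA replicate 1 or 3 (adjusted p up to 0.0806).

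After ADARB1 siRNA 5 of 67 pathway genes were called, 2 higher and 3 lower, where 4.61% of all tested genes were (2.10% higher, 2.51% lower). The median was 0.05 over the lists and -0.00 over all genes. EIF2S1, which encodes eIF2 alpha itself, fell to 43.9 ± 2.04 CPM, against 70.7 ± 2.41 CPM with siNC (-0.69 ± 0.08, adjusted p = 2.48e-05), and STC2 rose by 0.68 ± 0.10 (adjusted p = 5.36e-04). Both calls held in all 14 alternatives. Against the ADARB1 siRNA, ADAR siRNA gave 8 higher and 11 lower calls, ADAR among the lower. Of all tested genes 19.5% were called (9.90% higher, 9.64% lower). Among these pathway calls were EIF2S1 at 0.96 ± 0.08, SLC7A1 at 0.88 ± 0.08, SARS1 at -0.98 ± 0.07 and PSAT1 at -0.64 ± 0.09 (adjusted p of 6.77e-05 or less).

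With BX795 present, ADAR siRNA raised 14 pathway genes and lowered 2, ADAR itself and SARS1, relative to BX795 alone. Of all tested genes 9.52% were called (5.06% higher, 4.46% lower). The median was 0.19 over the lists and 0.02 over all genes. This comparison shares no library with that of batch 1. SARS1 fell here too (-0.64 ± 0.09, adjusted p = 7.59e-05), and SLC7A1 (0.63 ± 0.09, adjusted p = 1.62e-04) and STC2 (0.54 ± 0.10, adjusted p = 0.00224) rose. Of the 13 genes in the tRNA synthetase list, XPOT included, 5 rose and 1 fell. GARS1, the glycyl-tRNA synthetase, had 216 ± 25.8 CPM, against 151 ± 11.7 CPM with BX795 (0.52 ± 0.08, adjusted p = 3.21e-04). SLC1A5, a glutamine transporter, rose by 0.46 ± 0.10 (adjusted p = 0.00377; adjusted p = 0.0654 in a fit of batch 2 alone). In amino acid synthesis 1 of 11 genes rose, PSPH (0.39 ± 0.11, adjusted p = 0.0283), and 0 fell, and PSPH lost its call without replicate 2 of BX795 with ADAR siRNA or without BX795 replicate 2 or 3 (adjusted p up to 0.257). The count of 16 was 6 to 18 when a library was left out and 5 in a fit of batch 2 alone.

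The test of the difference between the responses with and without BX795 called 5 pathway genes higher and 1 lower, where 3.42% of all genes were called. This difference crosses the batches, so BX795 and batch cannot be told apart in it. Of the 11 amino acid synthesis genes 4 were higher, with a median difference of 0.56, against 0.04 over all genes, and PSPH (0.69 ± 0.15, adjusted p = 0.0104), CTH (0.75 ± 0.16, adjusted p = 0.0106) and ATF5 (0.82 ± 0.17, adjusted p = 0.0102) thus went the way of ASNS. PSPH and CTH lost the call without replicate 2 of BX795 with ADAR siRNA (0.56 and 0.53, adjusted p = 0.0717 and 0.0978), and ATF5 without its replicate 1 (0.70, adjusted p = 0.0844). GDF15 was lower (-0.86 ± 0.22, adjusted p = 0.0336), a call that passed in 9 of 18 alternatives and was lost without any 1 of 8 libraries: siNC replicate 1 or 2 of batch 1, any ADAR siRNA replicate, BX795 replicate 1, or either replicate of BX795 with ADAR siRNA.

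**Figure D4:**
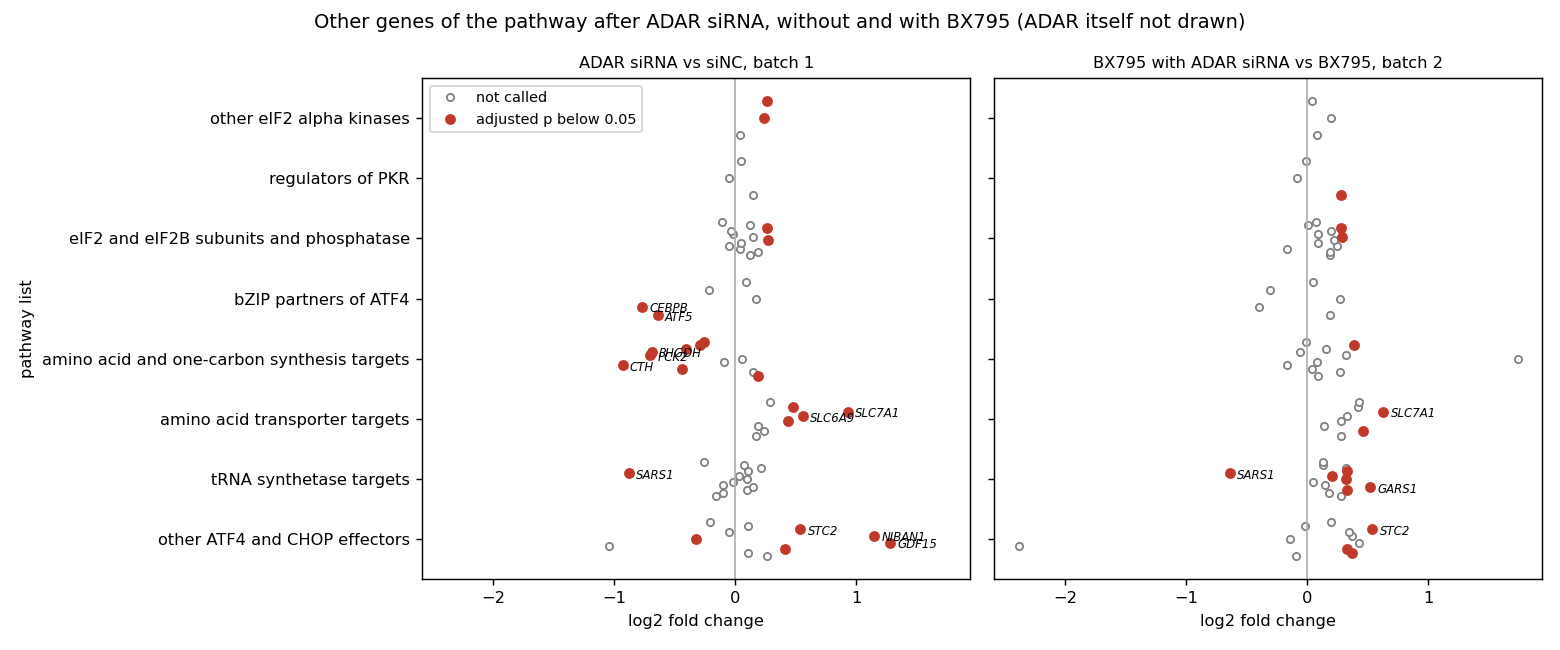
Log2 fold change of each pathway gene, by list and with ADAR itself not drawn, after ADAR siRNA without BX795 (left, batch 1) and with it (right, batch 2); filled red points have an adjusted p below 0.05, and names are given for called genes beyond 0.5. Amino acid synthesis targets lie mostly left of 0 in the left panel, with CTH at -0.93, and SARS1 is lower and SLC7A1 higher in both.

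Against siNC, IFNa called 20 pathway genes higher and 15 lower, BX795 26 and 22, and BX795 with ADAR siRNA 31 and 16, out of 67, where 34.3%, 47.1% and 40.3% of all tested genes were called. With the GC correction the totals of 35, 48 and 47 were 21, 28 and 39, while those over all genes, 7932, 10885 and 9310, were 6012, 8276 and 7901. IFNa raised STC2 (0.65 ± 0.11, adjusted p = 2.93e-04) and lowered CBS, of cysteine synthesis (-0.71 ± 0.11, adjusted p = 2.36e-04), and PSPH (-0.63 ± 0.12, adjusted p = 6.33e-04). BX795 lowered GDF15 to 65.6 ± 9.96 CPM, against 166 ± 37.8 CPM with siNC (-1.34 ± 0.15, adjusted p = 1.87e-06), and raised PPP1CB (0.76 ± 0.08, adjusted p = 9.47e-07) and CTH (0.76 ± 0.12, adjusted p = 5.97e-05). With the combination STC2 reached 51.2 ± 4.70 CPM, against 22.3 ± 3.29 CPM with siNC (1.21 ± 0.11, adjusted p = 1.43e-07), and the cystine transporter gene SLC7A11 rose by 1.27 ± 0.16 (adjusted p = 9.50e-06). These named calls held in every alternative tried. The ADAR siRNA response differed from the IFNa response for 9 pathway genes upward and 11 downward, ADAR among the latter. Of all tested genes 28.7% differed (13.2% higher, 15.5% lower), a share close to that of the lists, so these counts are not a result about the lists. GDF15 gave a difference of 1.76 ± 0.22, SLC7A1 of 0.92 ± 0.13 and CTH of -0.95 ± 0.17 (adjusted p of 5.03e-04 or less).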

How the data were processed

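Expected counts per gene were deposited by the authors as 1 table of 19 libraries, without scaling between libraries. Per the submitters' processing notes STAR, Salmon and GRCh38.p14 were used; the sources used here give no versions, settings or use of strand. Of the values, 94.8% were within 0.005 of a whole number, and all were rounded to whole counts, as edgeR takes counts. Symbols were matched to 61463 of 78894 gene identifiers; GC content and exon length came from GENCODE 29, and positions and promoters from RefSeq (all 10 members had a window).

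Genes were filtered with filterByExpr and tested by edgeR 4.0.16 (R 4.3.3) with TMM scaling and quasi-likelihood tests, in 1 model with a mean per group over all 19 libraries (12 residual degrees of freedom, common biological coefficient of variation 11.2%). Contrasts stayed within a batch, apart from 2 differences of within-batch responses. Benjamini-Hochberg adjustment ran over 23121 genes, with calls at an adjusted p below 0.05; intervals are 95% intervals from the SE. A ± gives the SE where it follows a fold change on the log2 scale, and the SD where it follows a CPM level.

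The members and lists were chosen with earlier results of these data known. The text gives every member call, but leaves out some comparisons in which a member was not called. By rule, it names from each list at most 2 called genes, those with the smallest p. Genes alike were ranked by Pearson r among genes with a mean of at least 1 CPM. Alternatives were DESeq2 size factors, the DESeq2 1.42.0 Wald test, no expression filter, fits of a batch or of the compared groups alone, a per-library GC correction through offsets, a replicate block, both together, and leaving out each library; where that left 1 library in an arm, it was assumed to vary like the other groups. The GC correction used the 87.0% of tested genes with a GC value. The test was checked on simulated counts.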

Additional observations from a re-analysis of the deposited data

Results flagged for a closer look

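The ADAR siRNA response of EIF2AK2 with BX795 minus that without it was -0.52 on the log2 scale, and that of ASNS was 0.71. Each stands out because the difference between both responses was itself tested and passed (edgeR's quasi-likelihood test, Benjamini-Hochberg adjusted p = 0.0197 and 0.0103). The responses come from different batches, so BX795 and batch cannot be told apart in these differences. The difference passed in 13 of 18 alternatives for EIF2AK2 (adjusted p up to 0.244) and in 16 of 18 for ASNS (adjusted p up to 0.0760).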

How the results depend on the processing

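Of 32 member calls, 10 held in every alternative: EIF2AK2 and ATF3 after ADAR siRNA against siNC, EIF2AK2, ATF3 and ASNS against ADARB1 siRNA, EIF2AK2 with IFNa, ASNS with BX795 and with BX795 plus ADAR siRNA against siNC, and EIF2AK2 and ASNS in the ADAR siRNA minus IFNa responses. DESeq2's Wald test kept 31 of the 32, DESeq2 size factors 31, no expression filter 32, the GC correction 22, the compared groups alone 22, the replicate block 23 and the block with GC correction 21, and a fit of the batch alone kept 16 of 25. Members called moved by over 1.5 times as follows. ADARB1 siRNA against siNC (0 reported) gave 1 with no filter, 4 with the batch alone, 4 with the groups alone, 1 with the GC correction, 1 with block and GC correction, and 1 by the Wald test. ADAR against ADARB1 siRNA gave 10 with the batch or the groups alone, where 5 were reported. IFNa gave 2 with the batch alone, 1 with the groups alone, 2 with the GC correction, 3 with the block and 2 with both, where 6 were reported. BX795 gave 3 with the batch or the groups alone (5 reported), and BX795 with ADAR siRNA against siNC gave 2 and 1 (4 reported). Against BX795 it gave 3 with no filter, 0 with the batch alone, 5 with the GC correction and 2 by the Wald test (1 reported). The difference with and without BX795 gave 0 with the block (EIF2AK2 -0.46, adjusted p = 0.104; ASNS 0.65, adjusted p = 0.0595) and 1 with block and GC correction (EIF2AK2 -0.41, adjusted p = 0.244), where 2 were reported. Leaving out 1 library gave 2 to 3 (ADAR siRNA against siNC), 0 to 0 (ADARB1 siRNA), 3 to 3 (ADAR against ADARB1 siRNA), 1 to 6 (IFNa), 4 to 8 (BX795), 2 to 5 (BX795 with ADAR siRNA against siNC), 1 to 5 (against BX795), 1 to 2 (difference) and 2 to 6 (minus IFNa). Among all genes the counts moved with the batch alone and the groups alone to 8156 and 8028 for ADAR siRNA (5042), 3557 and 3241 for ADARB1 siRNA (1066), 7676 and 7613 for ADAR against ADARB1 siRNA (4518), 4624 and 1695 for IFNa (7932), and 712 and 962 for BX795 with ADAR siRNA against BX795 (2201), and with the groups alone to 4188 against siNC (9310). The GC correction gave 1895, 3528 and 1435, and the replicate block 686, 1414 and 459, for ADARB1 siRNA, the combination against BX795 and the difference (790); the Wald test gave 1650 and 1211 for ADARB1 siRNA and the difference, and the block with GC correction 4556 for IFNa. Leaving out a library gave 603 to 702, 2652 to 9649, 5275 to 10499, 1209 to 2100, 442 to 775 and 3469 to 8629 genes for ADARB1 siRNA, IFNa, the combination against siNC, the combination against BX795, the difference and the ADAR minus IFNa responses (6638). Signs turned with the GC correction, and with the block and GC correction, for TRIB3 after ADARB1 siRNA (-0.02, -0.02); ATF4 (0.16, 0.12) and PRKRA (-0.10, -0.08) with IFNa; ATF4 (0.21, 0.21), SESN2 (0.12, 0.13), DDIT4 (0.33, 0.34), PRKRA (-0.13, -0.13) and NARS1 (-0.02, -0.02) with BX795. With BX795 and ADAR siRNA against siNC they turned for EIF2AK2 (-0.29, -0.22), TRIB3 (0.36, 0.30) and CHAC1 (0.62, 0.36, and 0.02 with no filter and 0.01 with the batch alone), and against BX795 for PPP1R15A (-0.01, -0.02). In the ADAR minus IFNa responses they turned for ATF4 (-0.20, -0.16), SESN2 (-0.13, -0.10) and PRKRA (0.05, 0.03), and with the GC correction for CHAC1 (-0.05) and SLC1A5 (-0.03). DDIT3 against BX795 was -0.03 with DESeq2 size factors, the Wald test, the block and the block with GC correction, and -0.02 with no filter, the batch alone and the groups alone, and CHAC1 in the difference was -0.04 with the block and -0.07 with block and GC correction. Leaving out 1 library turned the sign of DDIT3 after ADAR siRNA (-0.05 to 0.09), ATF4 with IFNa (-0.14 to 0.06), CHAC1 (-0.24 to 0.69) and DDIT4 (-0.30 to 0.06) with BX795, and EIF2AK2 (-0.01 to 0.21), TRIB3 (-0.35 to 0.16) and CHAC1 (-0.90 to 0.61) with the combination against siNC. Against BX795 it did so for ATF3 (-0.02 to 0.62), DDIT3 (-0.32 to 0.26), CHAC1 (-0.97 to 0.44) and SESN2 (-0.18 to 0.05), in the difference for DDIT3 (-0.36 to 0.23) and CHAC1 (-0.53 to 0.89), and in the ADAR minus IFNa responses for ATF4 (-0.08 to 0.12) and CHAC1 (-0.17 to 0.69). The cause of these changes was not tested. Same-numbered libraries correlated at -0.09 to 0.13 in batch 1 and -0.18 to 0.17 in batch 2, so the numbers do not pair them. Groups of 2 libraries, and 33 counts of CHAC1 at the lowest, limit the precision.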
